A study of Mus musculus with 8 samples.

Results

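The dystrophin-glycoprotein complex genes *Dmd*, *Utrn*, *Sgca*, *Sgcb*, *Sgcd*, *Dag1* and *Dtna* were examined in H3K27Ac ChIP-Seq of mouse heart. A peak was assigned to a member gene when its centre lay nearest to a curated RefSeq transcription start of that gene in the mm10 genome. This assigned 46 of the 45987 deposited peaks to the 7 genes, and each gene had at least 1 peak. Of the deposited peaks, 7 lay on unplaced sequence, so that 45980 peaks on 21 chromosomes formed the background. The study asked how loss of *Arid1a*, which encodes a DNA-binding protein of the SWI/SNF remodeling machinery, changes this histone mark in the neonatal heart. Ventricles were taken at postnatal day 7 from 2 *Arid1a* f/f Control mice, which carried floxed alleles without Cre, and from 2 *aMHC-Cre;Arid1a* f/f littermates, called *Arid1a cKO*. There were 4 H3K27Ac libraries and an input library for each, 8 in all. The *aMHC* promoter drives Cre in cardiomyocytes, so that fibroblasts, endothelial cells and other cells of the ventricle kept *Arid1a* in the mutants. The deposited table gave each peak's mean of each group and no value per library. Every level below is therefore the authors' group mean, the differences were not tested here, and no spread or library depth is given.

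Dystrophin is a long rod-shaped protein that links the actin cytoskeleton beneath the muscle membrane to a complex of transmembrane proteins, which in turn binds laminin outside the cell. Utrophin is its close relative and can take its place in the same complex, and loss of dystrophin or of a sarcoglycan weakens the membrane against the strain of contraction and leads to muscular dystrophy with cardiomyopathy. H3K27Ac marks active promoters and enhancers. Levels were expressed as normalized reads per peak, and as normalized reads per kb of peak where peaks or genes were compared with each other. Differences were log2 values, *Arid1a cKO* minus Control, and a peak was counted as lower or higher when it differed at least 2-fold, which is a log2 difference of -1 or 1. A mean of 3 normalized reads or fewer was taken as a floor, and a fold against it is a lower bound.

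DNA from a few of the peaks is shown here before the values, from peaks that moved and from others that did not. The first set is the matches to the MEF2 core motif in the 46 peaks, because MEF2 proteins are muscle transcription factors that bind many heart enhancers. The motif was searched on both strands as CTANNNNTAG, in which the 4 positions N are each A or T. It was found once in each of 6 peaks. Each site is given in mm10 with 20 flanking bases on either side, on the minus strand, which is the coding strand of all 3 genes, and the capitals mark the motif. All 6 windows lay outside annotated exons, in introns of the gene named. The *Sgcd* sites lie at chr11:47351742-47351791, chr11:47363183-47363232 and chr11:47377548-47377597, in peaks centred 27.6 kb, 15.9 kb and 1.36 kb from the start. The *Utrn* site is at chr10:12694990-12695039 in a peak 167 kb into the gene, and the *Dag1* sites are at chr9:108249793-108249842 and chr9:108257191-108257240 in peaks 14.1 kb and 6.91 kb into the gene.
Sgcd, 27.6 kb peak: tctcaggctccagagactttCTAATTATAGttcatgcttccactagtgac
Sgcd, 15.9 kb peak: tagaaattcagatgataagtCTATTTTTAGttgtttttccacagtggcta
Sgcd, start peak: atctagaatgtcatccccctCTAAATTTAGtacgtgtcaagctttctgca
Utrn, 167 kb peak: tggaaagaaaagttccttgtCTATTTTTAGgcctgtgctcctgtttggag
Dag1, 14.1 kb peak: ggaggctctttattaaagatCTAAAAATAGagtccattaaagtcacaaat
Dag1, 6.91 kb peak: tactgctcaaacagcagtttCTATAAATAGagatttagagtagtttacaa

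The second set holds the *Sgcb* promoter, whose peak was 2-fold lower, beside the *Sgca* promoter, whose peak was not. Both are the 250 bases before the curated start from RefSeq promoter sequences of the same build, on the minus strand, at chr5:73647738-73647987 and chr11:94976328-94976577. Both strands were searched for 8 motifs: the MEF2 core and its looser form CTANNNNTA with A or T at each N, the CArG box, the ESRR motif AAGGTCA, the TEAD motif CATTCC, the GATA motif AGATAA, the ZEB motif CACCTG and the MYCN motif CACGTG. Neither promoter held any of them, so both are in lower case throughout. The third sequence is 300 bases of an intergenic peak 63.3 kb upstream of the *Sgcd* start, at chr11:47442675-47442974 on the minus strand, chosen as the stretch of that peak with the most motif matches. Its capitals mark 1 match each to the ESRR, TEAD and GATA motifs, each read on the other strand here.
Sgcb promoter: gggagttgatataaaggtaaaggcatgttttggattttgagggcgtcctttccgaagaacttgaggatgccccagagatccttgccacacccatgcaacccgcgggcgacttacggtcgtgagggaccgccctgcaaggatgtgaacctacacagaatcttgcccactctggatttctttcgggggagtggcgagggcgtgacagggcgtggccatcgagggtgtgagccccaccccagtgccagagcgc
Sgca promoter: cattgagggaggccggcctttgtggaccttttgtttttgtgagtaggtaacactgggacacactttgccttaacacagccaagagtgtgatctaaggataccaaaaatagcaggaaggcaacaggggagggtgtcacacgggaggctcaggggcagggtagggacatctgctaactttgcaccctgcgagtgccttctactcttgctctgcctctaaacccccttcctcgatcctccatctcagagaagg
Sgcd upstream peak: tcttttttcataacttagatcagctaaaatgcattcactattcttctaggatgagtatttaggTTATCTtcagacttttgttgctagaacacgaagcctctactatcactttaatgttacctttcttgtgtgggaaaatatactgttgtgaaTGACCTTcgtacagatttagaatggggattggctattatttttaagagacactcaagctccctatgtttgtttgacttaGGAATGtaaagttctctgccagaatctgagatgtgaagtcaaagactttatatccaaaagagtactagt

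Of the 46 peaks, 14 were at least 2-fold lower in *Arid1a cKO* and 1 was at least 2-fold higher, while 31 were within 2-fold. Over all peaks, 10.6% were at least 2-fold lower and 4.57% at least 2-fold higher, against 30.4% and 2.17% of the members' peaks. The median log2 difference was -0.20 over the members' peaks and 0.01 over all peaks, and 32 of the 46 lay below 0. The lower peaks belonged to 5 of the 7 genes: 6 to *Sgcd*, 5 to *Utrn* and 1 each to *Sgcb*, *Dag1* and *Dtna*. *Dmd* and *Sgca* had no peak past 2-fold. Without *Sgcd*, 8 of 37 peaks (21.6%) were lower. In whole ventricle, fewer cardiomyocytes and less acetylation per cardiomyocyte cannot be told apart. The deposited means carry 2 decimals, and the peaks nearest to the limit were a *Utrn* peak at -1.0 and the *Sgcb* peak at -1.01 on one side and *Sgcd* and *Utrn* peaks at -0.92 and 0.93 on the other. The mean in *Arid1a cKO* was at the floor for 2 of the lower peaks, and with their differences set to the bound the median remained -0.20.

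**Figure D1:**
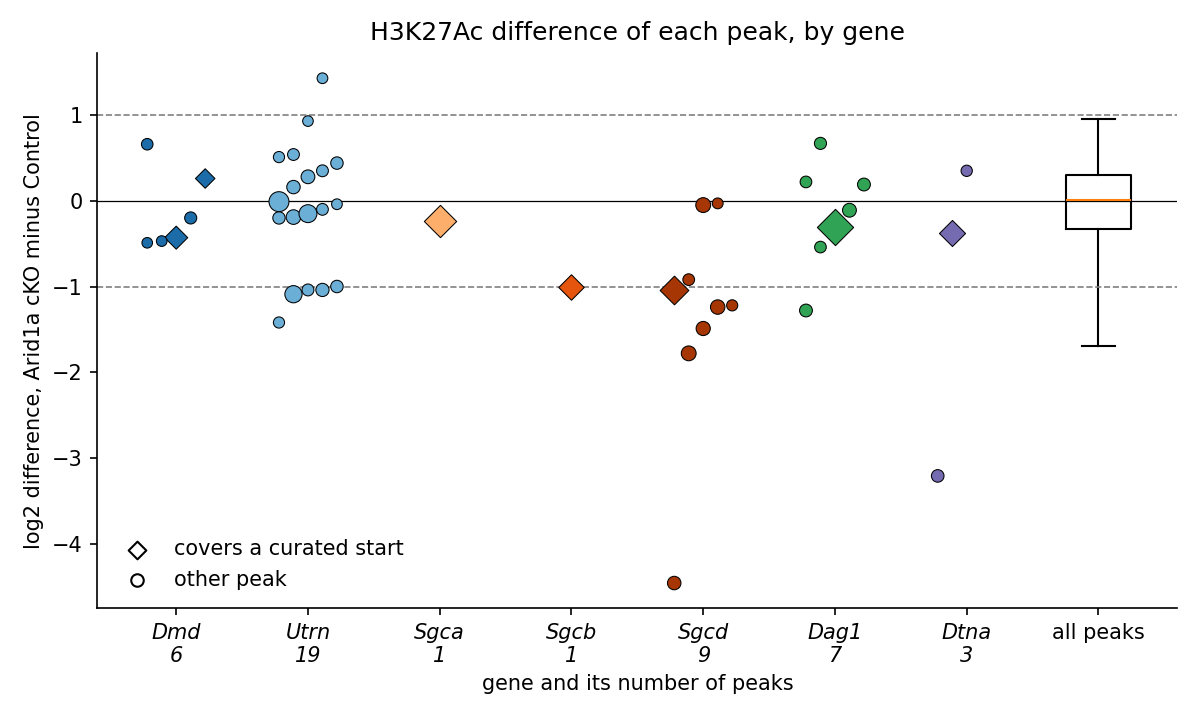
Log2 difference (Arid1a cKO minus Control) of each of the 46 peaks, by gene, with the number of peaks under each name. Diamonds cover a curated transcription start, symbol area grows with the Control reads, dashed lines mark 2-fold, and the box shows all 45980 peaks (median and quartiles, whiskers at the 5th and 95th percentile); the 9 *Sgcd* peaks all lie below 0.

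Dystrophin itself kept most of its H3K27Ac. *Dmd* had 6 peaks along its gene on chromosome X, with differences from -0.49 to 0.66. The peak over the start of the full-length transcript, chr X:82947903-82950468, had 128 normalized reads in Control and 95.0 in *Arid1a cKO*, a difference of -0.43. The peak over the start of the shorter *Dmd* transcripts far downstream, chr X:85048021-85049339, had 48.5 and 58.1 reads, a difference of 0.26. So the 2 *Dmd* starts differed in sign, each by less than 2-fold. The other 4 *Dmd* peaks were intronic and weak, with 6.02 to 19.6 reads in Control. Summed over its 6 peaks, which cover 7181 bp, *Dmd* had 222 reads in Control and 201 in *Arid1a cKO*. The 940 peaks of chromosome X had a median difference of 0.02, so that the chromosome as a whole was not shifted.

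Utrophin had the most peaks, 19, and they moved in both directions. Its strongest peak, chr10:12866747-12869968, had 357 reads in Control and 355 in *Arid1a cKO*, a difference of -0.01. That peak lies 6.62 kb upstream of the curated *Utrn* start and 40 bp from a predicted one, and no peak covered the curated start itself. The peak nearest to a *Utrn* start among the curated transcripts was therefore unmoved. Of the other peaks, 5 were at least 2-fold lower and 1 was higher. The largest of the lower peaks in reads, chr10:12353596-12355720, had 171 reads in Control and 80.4 in *Arid1a cKO*, a difference of -1.09. It is intergenic, 27.5 kb beyond the end of the gene and 507 kb from its start, so that its link to *Utrn* rests on the nearest-start rule. The other 4 lower peaks were intronic. They lay 432 kb, 339 kb, 167 kb and 72.8 kb from the start, with differences of -1.42, -1.04, -1.04 and -1.0 and Control means of 10.2, 17.5, 37.0 and 24.6 reads. The 1 higher peak, chr10:12781066-12781745, was intronic too, 80.3 kb into the gene, with 6.87 reads in Control and 18.5 in *Arid1a cKO*, a difference of 1.43. The 1 higher peak thus lay between lower peaks, and 13 of the 19 were within 2-fold. With predicted transcripts included, the lower peak at -1.09 was nearest to *Gm23680* and that at -1.42 to *Gm25139*. The median of the *Utrn* peaks was -0.04.

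The sarcoglycans are membrane-spanning proteins that form a tight subcomplex beside dystroglycan and stabilize it. Their 3 member genes had 11 peaks, and all 11 lay below 0. At least 2-fold lower were 7 of them (63.6%, against 10.6% of all peaks), and the median difference was -1.04. *Sgcd* alone had 9 of the 11 peaks and 6 of the lower ones, and *Sgca* and *Sgcb* had 1 peak each. These pooled values are therefore mostly those of *Sgcd*, and 2 of its peaks were near 0, at -0.05 and -0.03. The genes differed among themselves, since *Sgcb* and *Sgcd* were past 2-fold at their starts and *Sgca* was not. *Sgca*, which encodes alpha-sarcoglycan, had a single broad peak of 8036 bp over its start, chr11:94972157-94980192, with 680 reads in Control and 576 in *Arid1a cKO*, a difference of -0.24. *Sgcb*, which encodes beta-sarcoglycan, also had a single peak, chr5:73646805-73648326, over its start, with 215 reads in Control and 107 in *Arid1a cKO*, a difference of -1.01. In Control this was the densest of the 46 peaks, with 141 normalized reads per kb, and in *Arid1a cKO* it had 70.2.

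*Sgcd* encodes delta-sarcoglycan and had the most lower peaks, 6 of 9. Over its start, the peak chr11:47375854-47380087 had 391 reads in Control and 190 in *Arid1a cKO*, a difference of -1.04. Inside the gene, 4 intronic peaks between 7.23 kb and 31.4 kb from the start were lower as well. Their means went from 57.3 to 20.4 reads at 7.23 kb, from 75.1 to 21.9 at 15.9 kb, from 64.0 to 27.1 at 27.6 kb and from 9.99 to 4.29 at 31.4 kb. The differences were -1.49, -1.78, -1.24 and -1.22 in that order, so that each of these peaks was relatively lower than the start peak. The intergenic peak 63.3 kb upstream, chr11:47441838-47443395, had 41.9 reads in Control and 1.91 in *Arid1a cKO*, which is at least 14.0-fold lower against the floor. Its listed difference was -4.46, and 187 of all peaks (0.407%) had listed differences as low or lower. That count takes no account of the floor, so it gives no exact rank.

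The 6 lower *Sgcd* peaks lie within 95.8 kb and were the only *Sgcd* peaks less than 70 kb from the start, a distance chosen after the values were seen. Together they had 639 reads in Control and 266 in *Arid1a cKO*. The other 3 peaks were farther away: an intronic peak 233 kb into the gene at -0.92, and intergenic peaks 454 kb and 610 kb upstream at -0.05 and -0.03. The peak 610 kb upstream lies 511 bp from a predicted *Sgcd* start. Among the 2746 genes with at least 5 peaks, 46 (1.68%) had as many as 6 lower peaks and 49 (1.78%) had as high a share of lower peaks as *Sgcd*. This comparison was added after the *Sgcd* values were seen.

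**Figure D2:**
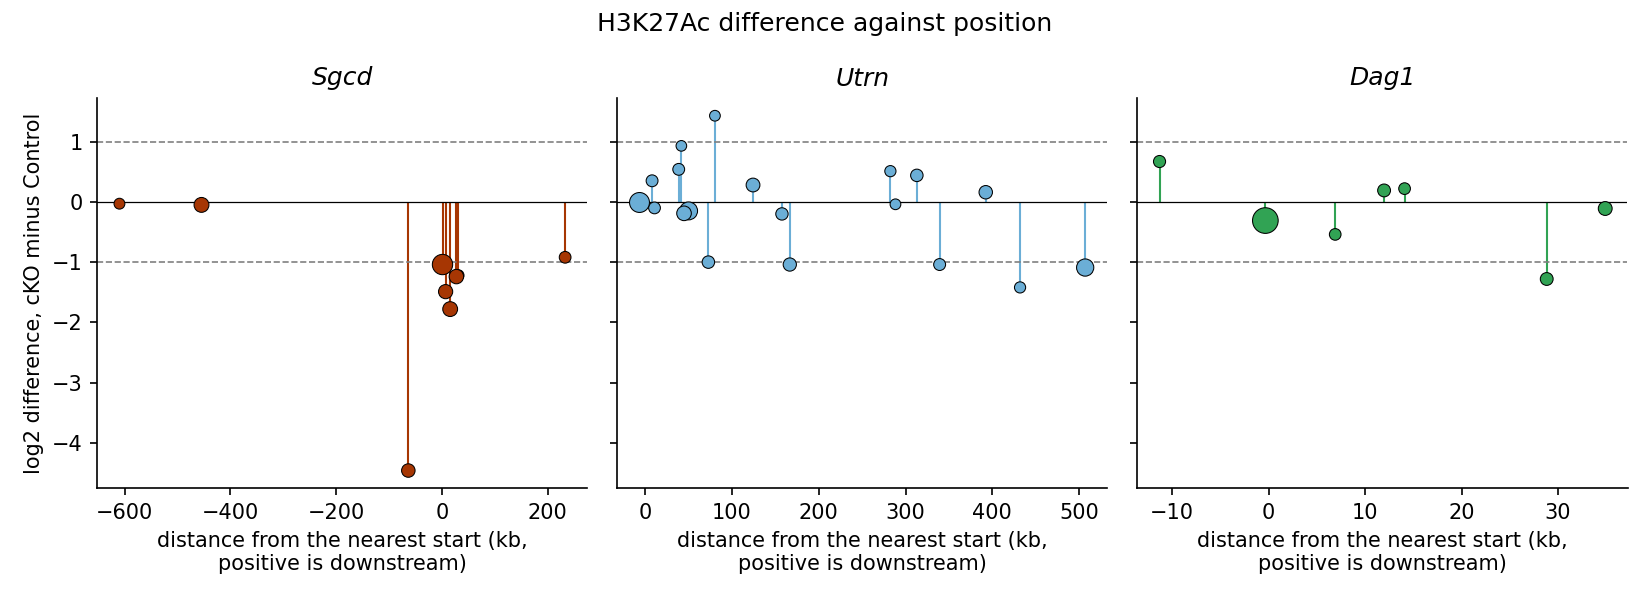
Log2 difference (Arid1a cKO minus Control) of each peak of *Sgcd*, *Utrn* and *Dag1* against its distance from the nearest curated start in kb. Symbol area grows with the Control reads and dashed lines mark 2-fold; the lower *Sgcd* peaks cluster around the start, while those of *Utrn* are spread over the gene.

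*Dag1* encodes dystroglycan, the laminin receptor at the centre of the complex, and had 7 peaks. The start lay in a broad peak of 11127 bp, chr9:108258730-108269856, with 1152 reads in Control and 929 in *Arid1a cKO*, a difference of -0.31. This was the largest of the 46 peaks in reads. An intronic peak 28.8 kb into the gene, chr9:108234299-108235669, went from 29.9 to 12.3 reads, a difference of -1.28. The remaining 5 peaks lay between -0.54 and 0.67. The start peak and most of the others were thus within 2-fold, and over its 7 peaks, which cover 19473 bp, *Dag1* had 82.4% of its Control reads in *Arid1a cKO*. Inside the *Dag1* gene, peaks with 405 and 89.9 Control reads were nearest to the start of *Bsn* and were not counted. Their differences were -0.14 and -0.05.

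*Dtna* encodes alpha-dystrobrevin, a cytoplasmic protein that binds dystrophin and anchors syntrophins, and had 3 peaks. The peak over a curated start inside the gene, chr18:23413647-23417189, had 246 reads in Control and 190 in *Arid1a cKO*, a difference of -0.37. No peak covered the most upstream curated start, at chr18:23310020. An intronic peak, chr18:23510900-23512035, 14.0 kb downstream of an internal *Dtna* start, went from 26.4 reads to 2.85, which is at least 8.78-fold lower. The third peak, also intronic, was at 0.35. So *Dtna* resembled *Sgcd* in holding a peak that reached the floor in *Arid1a cKO*, but its start peak was within 2-fold. Over all peaks, 728 (1.58%) had *Arid1a cKO* means at the floor. Inside *Dtna*, 3 peaks were nearest to the start of *Gm15972* and were not counted. Of these, 1 was at least 2-fold higher, with 4.23 and 9.99 reads, and the others were at -0.50 and -0.90.

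The lower peaks were next compared with peaks of the same kind. By their centres, 37 of the 46 peaks were intronic, and 12 of these were at least 2-fold lower. Over all intronic peaks the share was 12.7%, against 32.4% of the members' intronic peaks. A curated start was covered by 7 of the 46 peaks, and no start of any other gene lay under them. Of these 7, 2 were at least 2-fold lower, those of *Sgcb* and *Sgcd*. Over all 12022 peaks that cover a curated start, 204 (1.70%) were. The median difference of the 7 start peaks was -0.37, against 0.01 over all such peaks, and only the peak over the downstream *Dmd* start was above 0.

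In Control the order of the start peaks by density was *Sgcb* with 141 normalized reads per kb, *Dag1* with 104, *Sgcd* with 92.3, *Sgca* with 84.7, *Dtna* with 69.3 and the *Dmd* starts with 49.9 and 36.8. The median over all peaks that cover a start was 62.3 reads per kb. In *Arid1a cKO* the densest was *Dag1* with 83.5, followed by *Sgca* with 71.7, *Sgcb* with 70.2, *Dtna* with 53.6, *Sgcd* with 44.9 and the *Dmd* starts with 37.0 and 44.0. *Sgcb* and *Sgcd* thus moved down in the order, and *Sgcd* went from above the *Dtna* start to below it. Whether neighbours in these orders differ beyond the spread between animals was not tested.

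**Figure D3:**
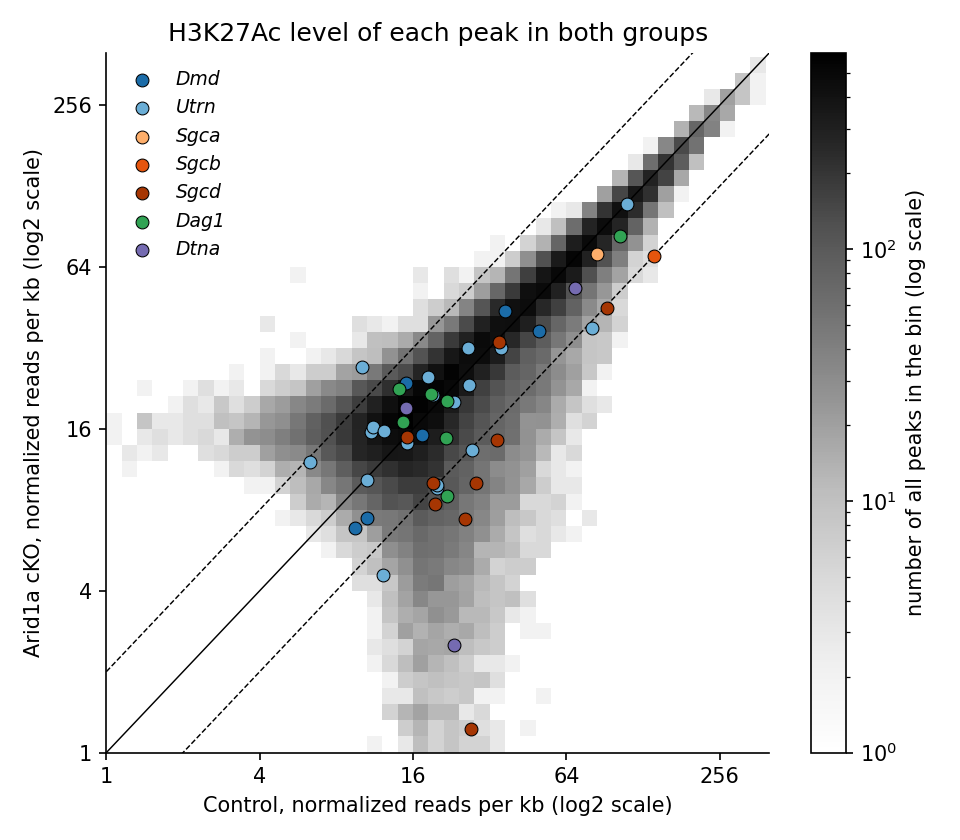
Normalized reads per kb of each peak in Control and Arid1a cKO, both on log2 scales, for the peaks of the 7 genes (colored) and all peaks (grey bins, number per bin on a log scale). The solid line marks equal levels and the dashed lines 2-fold. Of the 9 *Sgcd* peaks, 6 lie on or below the lower dashed line, at 19.6 to 34.3 normalized reads per kb in Control except for the start peak at 92.3.

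Summed over all its peaks, each of the 7 genes had fewer reads in *Arid1a cKO*. The log2 differences of the sums were -1.06 for *Sgcd*, -1.01 for *Sgcb*, -0.45 for *Dtna*, -0.28 for *Dag1*, -0.24 for *Sgca*, -0.16 for *Utrn* and -0.15 for *Dmd*. *Sgcd* and *Sgcb* kept 48.1% and 49.7% of their Control reads, and the other 5 genes between 73.2% and 90.3%. Per kb of peak, *Sgcd* went from 44.4 normalized reads over 16653 bp to 21.3. The sum over all peaks of the table differed by -0.08.

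The members' peaks were narrower and weaker than most, with a median width of 1358 bp against 1781 bp and a median of 21.6 normalized reads over all libraries against 44.3. MEF2 motifs lay in 6 of the 46 peaks (13.0%), against 7.56% of all peaks. Among the 14 lower peaks 4 held one, 3 of *Sgcd* and 1 of *Utrn*, and among the other 32 peaks 2 did, both of *Dag1*. Over all peaks at least 2-fold lower, 10.3% held one. In the central 500 bp, a window of equal length for every peak, 3 of the 46 peaks (6.52%) held the motif, against 2.58% of all peaks. Of the 14 lower peaks 2 (14.3%) did, against 5.56% of all peaks at least 2-fold lower. The looser form was found in the central window of 11 of the 46 peaks (23.9%) and 10.4% of all peaks. It lay in that of 7 of the 14 lower peaks, against 18.3% of all peaks at least 2-fold lower. It includes every match of the longer form. These are counts of letters in the reference genome, and binding of MEF2 was not measured.

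Other motifs were counted in the same windows. Over whole peaks, the ESRR motif lay in 5 of the 14 lower and 12 of the other 32 peaks, the TEAD motif in 7 and 21, the GATA motif in 9 and 19, the ZEB motif in 11 and 12, the looser MEF2 form in 10 and 15, the CArG box in 0 and 4 and the MYCN motif in 1 and 2. Over all peaks at least 2-fold lower, these motifs lay in 40.3%, 62.1%, 59.1%, 68.7%, 37.0%, 8.69% and 23.7% in the same order. In the central windows, ESRR motifs lay in 9 of the 46 peaks, against 11.3% of all peaks, and TEAD motifs in 13, against 26.4%. GATA motifs lay in 12, against 21.5%. The ZEB motif lay in 9 of the 46 central windows, against 28.0% of all, and the CArG box and the MYCN motif in 1 each, against 2.59% and 7.96% of all. In the 250 bases before the start, the MEF2 core was present in 0.508% of 32851 RefSeq promoters and its looser form in 3.27%. The CArG box was present in 1.47%, the MYCN motif in 6.02%, the ESRR motif in 4.08%, the TEAD motif in 12.6%, the GATA motif in 9.99% and the ZEB motif in 17.2%. Among the member promoters searched, that of *Sgcd* held 1 TEAD and 1 MYCN match and that of *Utrn* 1 MYCN match. The promoter of full-length *Dmd* held 1 CArG box and 1 looser MEF2 match. Those of *Sgca*, *Sgcb*, *Dag1* and the downstream *Dmd* start held none of the 8 motifs.

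The other genes of the complex were taken as a list of 13, among them sarcospan, syntrophins, *Sgce*, *Sgcz*, *Dtnb*, *Drp2*, *Nos1* and *Cav3*. *Sgcz*, *Nos1* and *Drp2* had no peak, and the other 10 had 59. Of these, 6 (10.2%) were at least 2-fold lower and 6 at least 2-fold higher, with a median difference of 0.17. The list thus had a share of lower peaks close to that of all peaks. Among the genes with the most Control reads, *Sspn* (sarcospan), *Sntb1* and *Sntb2* (syntrophins) had sums that differed by -0.09, 0.18 and 0.28, and *Cav3* (the muscle caveolin) by -0.57.

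*Sgce*, whose product is found in many cell types, had a single peak over its start at 0.10. Unlike *Sgca*, *Sgcb* and *Sgcd*, it was thus not below 0 at its start. Lower peaks were found at *Cav3* (-1.40), *Sspn* (-1.45) and *Sntb1* (-1.33). Higher peaks belonged to *Sntb1* (1.08 and 1.36), *Cav3* (1.03) and *Sntg2*, a syntrophin gene with 3 of its 4 peaks past 2-fold. The *Sntg2* start peak went from 6.06 to 51.6 reads, and another of its peaks from 0.946 to 41.4 reads, which is at least 13.8-fold higher.

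**Figure D4:**
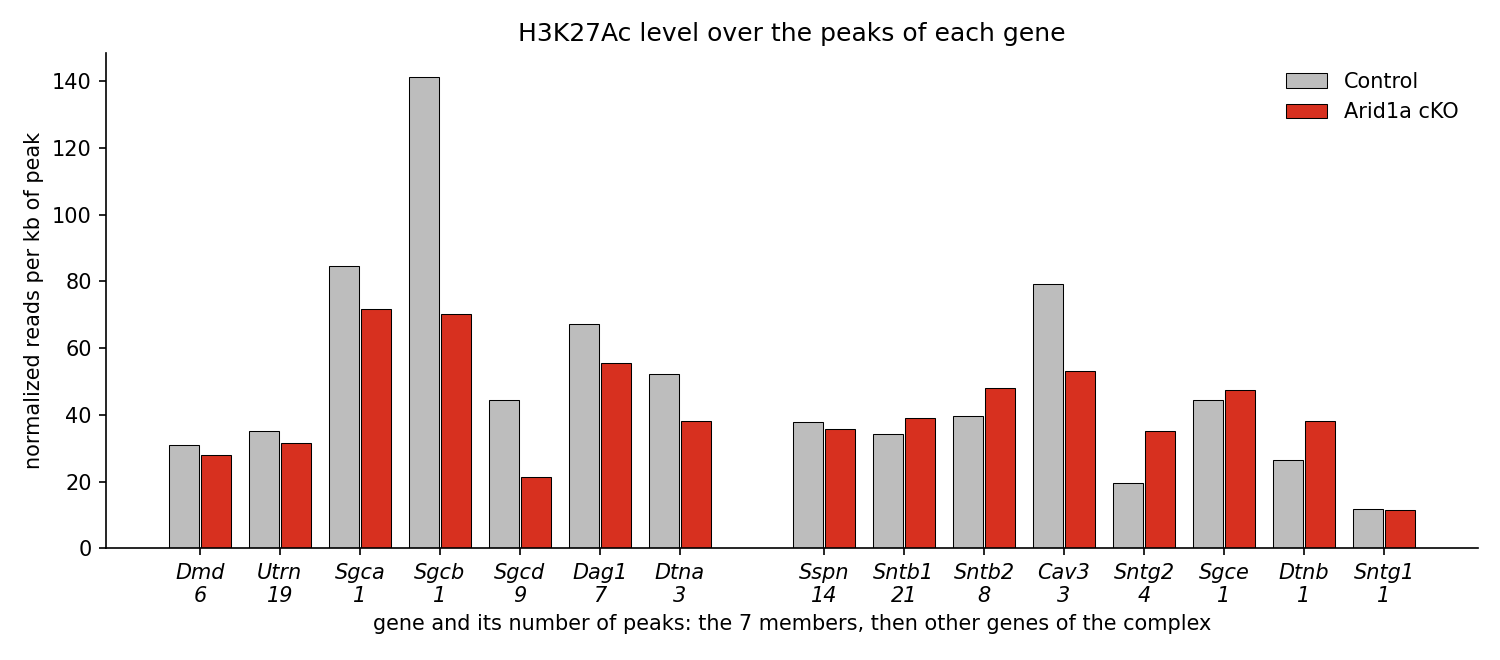
Normalized reads per kb, summed over the peaks of each gene and divided by their length, in Control and Arid1a cKO, with the number of peaks under each name. The 7 genes stand on the left and 8 other genes of the complex with a peak on the right, ordered by Control reads; *Sgcb* and *Sgcd* show the largest relative drop, and *Sntg2* the largest relative gain.

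The enzymes that attach the laminin-binding sugar chain to dystroglycan formed a list of 18 genes, 16 of them with a peak. Of their 29 peaks, 3 were at least 2-fold lower and 0 higher, and the median difference was 0.00. The laminins and other ligands of dystroglycan had 31 peaks at 7 of 8 genes, 1 lower and 1 higher. Genes that link dystrophin to the cytoskeleton had 45 peaks at 6 of 7 genes, 4 lower and 2 higher. The integrin-based costamere, a parallel link between the contractile apparatus and the matrix, had 148 peaks at 16 of 17 genes, 19 lower (12.8%) and 6 higher, with a median of -0.13. In these lists 2, 2, 3 and 8 genes had a peak past 2-fold. The share of lower peaks was therefore 30.4% for the 7 genes and between 3.23% and 12.8% for the related lists; whether these shares differ beyond chance was not tested.

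**Figure D5:**
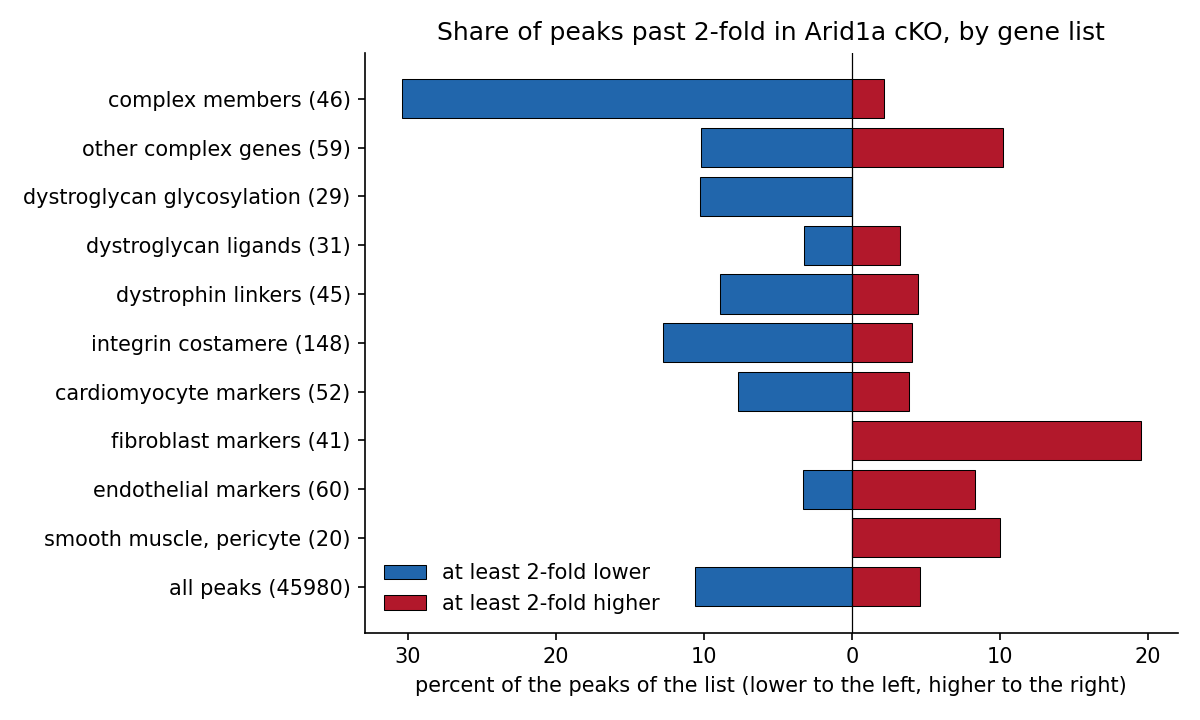
Percent of the peaks of each gene list that were at least 2-fold lower (left) or higher (right) in Arid1a cKO, with the number of peaks in parentheses. The 7 genes of the complex are at the top with 30.4% lower, and all peaks at the bottom with 10.6% lower.

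Markers of the cell types of the ventricle were counted in the same way, because whole ventricle was used. The 8 cardiomyocyte markers, *Ryr2* with the most reads, all had peaks. Of 52 peaks 4 were lower and 2 higher, the median was -0.16 and the summed level went from 18346 to 16882 reads. All 6 fibroblast markers had peaks, and 39 of their 41 peaks were above 0. At least 2-fold higher were 8, and 0 were lower. The median was 0.46, and the summed level went from 2955 to 4145 reads, with *Tcf21* the most abundant. The summed level was thus higher in *Arid1a cKO* at the fibroblast markers and lower at the cardiomyocyte markers.

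The 6 endothelial markers had 60 peaks, 2 lower and 5 higher, a median of 0.17 and sums of 11924 and 12343 reads, led by *Kdr*. The smooth muscle and pericyte markers, led by *Pdgfrb*, had 20 peaks, 2 higher, a median of 0.17 and sums of 2389 and 2841 reads. Peaks were present at 4 of 6 leukocyte markers (*Adgre1* and *Lyz2* had none), with sums of 112 and 162 reads. In Control *Csf1r* was the most abundant of these with 46.0 reads, and in *Arid1a cKO* it was *Ptprc* with 77.7. The epicardial markers had 12 peaks, with sums of 1651 and 1783 reads, and no peak at *Upk3b*. *Wt1* led them in Control with 993 reads, while in *Arid1a cKO* *Tbx18* had 875 and *Wt1* 873. The skeletal muscle regulators *Myod1*, *Myf5* and *Pax7* and also *Acta1* had no peak, while the regulator *Myog* had 3 peaks, all above 0 and 1 of them at 2.09, with sums of 442 and 494 reads. The other skeletal marker with a peak, *Ckm*, had the most reads, 750 in Control and 505 in *Arid1a cKO*. Of 5 Schwann cell and neuronal markers, 4 had no peak. The part of cell composition in the differences at *Sgcb*, *Sgcd* and the other members was not tested.

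*Arid1a*, the targeted gene, had 2 peaks. The peak over its start had 1607 reads in Control and 1663 in *Arid1a cKO*, a difference of 0.05, and the other had -0.02. Acetylation at the promoter does not report whether the floxed exon was removed, so these values check nothing about the labels.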

How the data were processed

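H3K27Ac ChIP-Seq and input libraries came from 2 Control and 2 *Arid1a cKO* ventricles. Alignment to mm10 was done by the authors with BWA (0.7.17-r1188). HOMER was used for peak calling against input, peaks seen in 2 or more samples were retained, and the authors used DiffBind 2.12.0 and DESeq2 1.24.0 to normalize read numbers. They deposited log2 mean normalized reads of each peak over all libraries and in each group. Another 3 columns hold the authors' fold change, p-value and FDR and were not used. The table holds 0 columns of single libraries, so depth per library was not analysed here. Here the log2 means of the groups were subtracted. Peaks were assigned to the nearest curated RefSeq start (GRCm38.p6), with Python 3.11.15, pandas 2.3.3 and numpy 2.4.6. Members and lists were chosen with earlier results of these data known. Named singly were the peaks nearest to a member's start, each past 2-fold, and each member's strongest, the 6 other complex genes with most Control reads, those past 2-fold, and marker genes. Some genes that this rule takes are not reported here. Assignment, calls and motif counts were tested on simulated data.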

Additional observations from a re-analysis of the deposited data

How the results depend on the processing

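No paired analysis was possible because the table holds group means and no value per library. The 46 member peaks became 27 within 50 kb of a start. The 14 lower peaks became 8 within 50 kb (of 27 peaks), 15 at a limit of 1.5-fold and 3 at a limit of 3-fold. They became 12 with predicted transcripts included (of 44), 12 with gene bodies extended by 5 kb (of 47) and 10 without the peaks of lowest concentration (of 29). As alternatives chosen after seeing the data, they became 8 without *Sgcd* (of 37 peaks) and 9 without *Utrn* (of 27). The share of all peaks was not counted at these other limits and filters, so whether the members' share stayed above it was not tested. The 1 higher peak became 2 with gene bodies extended by 5 kb, 4 at a limit of 1.5-fold, and 0 within 50 kb, at 3-fold, without the peaks of lowest concentration or without *Utrn*. The median of -0.20 was -0.19 within 50 kb, -0.21 after centring on the median of all peaks, -0.195 without chromosomes X and Y, -0.15 without *Sgcd* and -0.43 without *Utrn*. The 6 lower peaks of the other complex genes became 10 at 1.5-fold and 3 without the peaks of lowest concentration (log2 4.18 or less). These alternatives change which peaks are counted, the limit or the centre, and no other cause was tested. For *Sgcb*, a gene body extended by 5 kb took in a peak nearest to *Spata18*, and the difference of its sum went from -1.01 to -0.65. The sum of *Utrn* went from -0.16 to -0.06 over the extended gene body and -0.03 within 50 kb, and that of *Dmd* from -0.15 to -0.12 within 50 kb. With the median over peaks in place of the sum, *Utrn* was at -0.04, *Dmd* at -0.32, *Dag1* at -0.11 against -0.28, *Dtna* at -0.37 against -0.45 and *Sgcd* at -1.22 against -1.06. *Sgcd* was at -1.17 over the extended gene body and -1.18 within 50 kb. No median or summed difference of a member changed sign under the alternatives run, but that says nothing about replicate error, which was not estimated. Peaks with few reads are the least certain.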
